A study of Mus musculus with 4 samples.

Results

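The forkhead family was examined as 44 of 21853 protein-coding genes, chosen as every gene of GENCODE release M21 whose symbol is Fox followed by a subclass letter from a to s and a number. Binding of Foxr2, itself a member of the family, was measured by CUT&RUN, which releases and sequences the DNA fragments next to an antibody-bound protein. The antibody recognised the V5 tag. The tagged group was a Foxr2 p53LOF neurosphere line in 2 replicates (FOXR2 P53LoF in the labels), which carries a piggyBac vector with V5-tagged FOXR2 under the CAG promoter, active in most cell types, and a CRISPR disruption of Trp53. The other group was 2 replicates of a V5 control (genotype H3.3G34R in the labels), neurospheres from another in utero electroporation model that lacks the tag. All 4 libraries came from C57BL/6J mice and were cross-linked with 0.1% formaldehyde for 1 minute. The sources do not say that the replicates were separate cultures, so the spread between them may be technical, and neither group holds untagged Foxr2 p53LOF cells. The CAG promoter drives the FOXR2 of the vector, and the amount of Foxr2 was not measured here. The age of the cells is that of a passaged line and not of an animal.

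Forkhead proteins share a winged-helix domain that binds DNA and are sorted into lettered subclasses by the sequence of that domain. Some subclasses pattern tissues of the embryo, such as the endoderm (A) and mesenchyme (C and F). Others act in many cell types, such as FOXO factors, which AKT holds out of the nucleus when insulin or growth factors are present, FOXK factors in metabolism, FOXM1 in the late cell cycle and FOXP factors as repressors in neurons and lymphocytes.

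Each library has its own list of peaks called with MACS2 on mm10 (GRCm38), and the lists still hold weak peaks. The Foxr2 p53LOF lists held 31909 and 38580 peaks, and the control lists held 308 and 124. The fold enrichment of a peak is the number of fragments at its summit plus 1, divided by the background of that library plus 1. A fold above 6 took 13 fragments in Foxr2 p53LOF replicate 1 and 18 in replicate 2, so a fold near 6 rests on few fragments and its 95% interval is wide. All intervals given here are exact Poisson intervals for the fragments at the summit, and they cover counting error only. A gene was counted as called where both Foxr2 p53LOF lists held a peak, and as carrying a reproducible site where filtered peaks of both replicates (fold above 6, −log10 q above 6, under 10000 bp, no overlap with a control peak of 10 bp or more) covered a common stretch. The places read were the gene body with 10 kb on either side (the gene region) and the 1 kb on either side of any start of a protein-coding transcript, and a peak was counted where any part of it lay there.

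The tagged gene was looked at first. The region of Foxr2 on chromosome X held no control peak in either library. In the Foxr2 p53LOF lists its strongest peaks had folds of 5.74 (interval 3.18 to 9.70) in replicate 1 and 6.24 (3.83 to 9.67) in replicate 2. These were the only peaks of any of the 44 genes, in either list, that lay wholly inside a coding exon of the gene. The coding sequence of Foxr2 is a single block of 906 bp, and the peaks were 823 and 838 bp long, so they cover most of it. Foxr2 is counted among the called gene regions below. No peak lay within 1 kb of a Foxr2 start, and Foxr1, the other gene of the subclass, had no peak in its region. Whether the fragments over the coding exon came from the vector or from chromosome X was not tested.

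Foxr2 peaks were found at forkhead genes about as often as at other genes. The gene region was called in both lists for 29 of 44 forkhead genes (65.9%), beside 63.7% of all protein-coding genes. A peak within 1 kb of a start was called in both lists for 25 (56.8%), beside 51.5% of all genes. Both shares of called genes lay slightly above those of all genes. With the minimum fold of 6 applied to each list, 19 gene regions (43.2%) remained, beside 50.8% of all genes, and 17 genes (38.6%) kept a peak near a start, beside 39.8%. The same 19 and 17 genes carried a reproducible site, beside 49.9% of all genes for the gene region and 39.3% near a start. At a minimum fold of 10 the counts with a site fell to 11 (25%) for the region and 8 (18.2%) near a start, beside 27.7% and 19.8% of all genes. In each of these comparisons the forkhead share lay close to the share of all genes, and none was tested. In the control lists 0 of 44 forkhead regions held a peak, where 0.558% of all gene regions held one in either list.

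Per megabase of gene region, the forkhead genes had 24.3 peaks in replicate 1 and 27.5 in replicate 2. The same densities over all protein-coding genes were 24.4 and 29.1. Forkhead genes are short, with a median length of 5.72 kb against 17.4 kb for all genes. Among the 26 forkhead genes under 10 kb, 4 had a site near a start, beside 26.1% of all genes of that length. Among the 15 from 10 to 100 kb, 10 had one, beside 47.3%, and all 3 longer than 100 kb (Foxn3, Foxp1 and Foxp2) had one, beside 43.6%. These 3 genes have 6, 14 and 8 annotated starts, and a peak near any of them was counted. Peaks were densest on chromosomes 11, 13 and 15, where 9 forkhead genes lie. Without those chromosomes 13 of 35 forkhead genes (37.1%) had a site near a start, beside 37.3% of all genes.

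The subclasses differed widely in how often they carried a site. Every gene of subclasses J, K, M and P had a site near a start, as did 3 of 4 FOXO genes (all but Foxo6) and 2 of 4 FOXN genes (Foxn2 and Foxn3). In these 6 subclasses 15 of 18 genes had a site near a start, beside 39.3% of all genes and 47.3% of those from 10 to 100 kb, and their median gene length was 49.9 kb. In subclasses A to I, L, Q and S the number was 2 of 24 (Foxc1 and Foxd1), beside 26.1% of all genes under 10 kb, with a median length of 3.29 kb. In subclass R it was 0 of 2. At Foxj3, Foxm1 and Foxp3 the start site also lay at the start of another gene, and without such peaks the counts were 12 of 18 and 2 of 24, with none left in subclass M, beside 29.4% of all genes. At a minimum fold of 10 they were 7 of 18 and 1 of 24, beside 19.8% of all genes, and the genes lost include all 3 FOXJ genes, Foxk1, Foxp2 and Foxp3. This split of the subclasses was made after the values were seen and has no test, and gene length moved with it. The number of annotated starts, each with its own window, also tended to be higher in the 6 subclasses. Foxp1, Foxp2 and Foxj3 had 14, 8 and 7 starts, though Foxj1, Foxk2 and Foxo1 had 1. No gene of A to I, L, Q and S had more than 3. At Foxj3 and Foxn3 the site lay at a start 2775 and 170510 bp from the 5′ end of the gene. The part of length and starts was not tested.

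**Figure D1:**
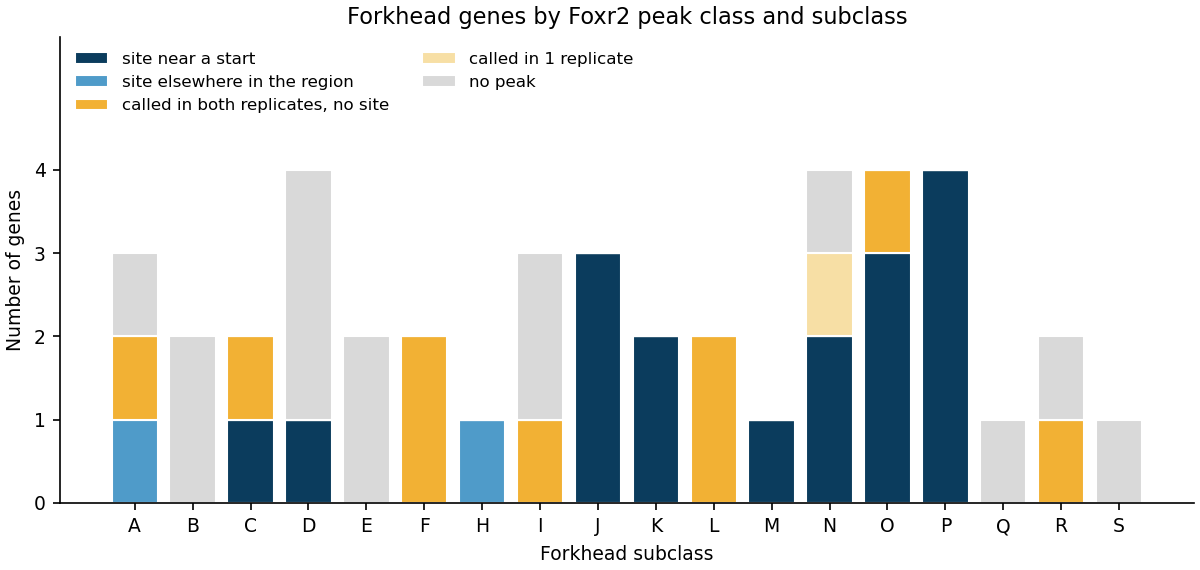
Number of forkhead genes in each subclass shown (bars, 43 of the 44 genes), coloured by the strongest class of Foxr2 p53LOF peak in the gene region. All genes of J, K, M and P carried a reproducible site near a start (at Foxj3, Foxm1 and Foxp3 also at the start of another gene), and 17 of the 44 genes did so in all.

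The sequences at the strongest start sites come first. For each subclass with a site near a start, the 200 bases around the replicate 1 summit of its strongest site are shown, on the strand of the gene and from the RefSeq GRCm38.p6 genome. Annotated untranslated bases were removed, which shortened Foxc1 and Foxm1 and left nothing of Foxd1. Capitals mark a forkhead core. The windows are Foxo3 at chr10:42277885-42278084 (minus strand), Foxn2 at chr17:88441806-88442005 (plus), Foxp4 at chr17:47924957-47925156 (minus), Foxk2 at chr11:121259555-121259754 (plus), Foxm1 at chr6:128362869-128362924 (plus), Foxj1 at chr11:116335517-116335716 (minus) and Foxc1 at chr13:31806563-31806632 (plus).
Foxo3: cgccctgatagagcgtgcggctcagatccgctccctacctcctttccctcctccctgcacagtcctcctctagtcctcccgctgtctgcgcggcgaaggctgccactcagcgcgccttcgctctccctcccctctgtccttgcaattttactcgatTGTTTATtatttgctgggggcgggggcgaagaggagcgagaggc
Foxn2: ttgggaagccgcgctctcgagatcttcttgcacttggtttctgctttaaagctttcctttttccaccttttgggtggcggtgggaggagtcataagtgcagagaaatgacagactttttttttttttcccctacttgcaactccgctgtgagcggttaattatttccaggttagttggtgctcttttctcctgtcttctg
Foxp4: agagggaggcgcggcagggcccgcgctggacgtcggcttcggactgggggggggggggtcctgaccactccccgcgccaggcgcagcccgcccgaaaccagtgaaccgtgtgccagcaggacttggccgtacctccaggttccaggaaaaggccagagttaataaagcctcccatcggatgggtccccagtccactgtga
Foxk2: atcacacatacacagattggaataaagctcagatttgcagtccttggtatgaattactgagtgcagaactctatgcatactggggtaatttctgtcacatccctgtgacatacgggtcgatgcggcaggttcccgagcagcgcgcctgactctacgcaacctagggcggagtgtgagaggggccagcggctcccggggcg
Foxm1: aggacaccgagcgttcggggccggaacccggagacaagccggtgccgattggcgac
Foxj1: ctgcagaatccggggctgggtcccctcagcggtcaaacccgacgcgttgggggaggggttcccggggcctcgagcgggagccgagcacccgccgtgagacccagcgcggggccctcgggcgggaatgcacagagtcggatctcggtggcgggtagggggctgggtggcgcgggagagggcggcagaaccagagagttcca
Foxc1: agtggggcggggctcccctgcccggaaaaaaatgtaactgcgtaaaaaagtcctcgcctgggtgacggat
The GC content of these windows, before the removal of untranslated bases, ran from 45.5% at Foxn2 to 79.5% at Foxm1. Among them, the core ATAAACA was present at Foxo3, where it reads TGTTTAT on the strand of the gene.

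FOXO genes, the effectors that AKT restrains, held the strongest site near a forkhead start in both replicates. At Foxo3 the fold was 27.4 (21.1 to 35.1) in replicate 1 and 25.3 (20 to 31.6) in replicate 2, from 61 and 76 fragments. The lower of these folds was above that of 97.9% of all reproducible sites. The summits lay 1230 and 1259 bp upstream of the nearest Foxo3 start, and the site (chr10:42275656-42279004) reaches over that start. A weaker site in an intron of Foxo3 had folds of 6.19 and 7.23. Foxo1 had 12.4 (8.30 to 17.8) and 10.8 (7.52 to 15.2), with summits 231 and 242 bp upstream of its start. Foxo4, on chromosome X, had 7.51 (4.48 to 11.9) and 6.90 (4.34 to 10.5), and both intervals reach below the minimum of 6. Foxo6, a FOXO gene expressed mainly in brain, was called near its start at 4.42 and 4.60 and gave no site. The intervals of Foxo3 lay wholly above those of Foxo4 and Foxo6 in both replicates.

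FOXK genes encode factors that bind the deubiquitinase Bap1 and the corepressor Sin3. Near their starts Foxk2 had folds of 13.3 (9.02 to 18.8) and 12.2 (8.61 to 16.7), and Foxk1 had 9.72 (6.18 to 14.6) and 10.8 (7.52 to 15.2). In all 4 values the lower bound was above 6. Foxk1 also held an intronic site 39238 bp downstream of a start, with folds of 10.2 and 17.1. Foxm1, which drives genes of the G2 and M phases, had 11.5 (7.59 to 16.7) and 10.5 (7.25 to 14.8) at a peak that also lies at the start of Rhno1, so the peak cannot be assigned to either gene. The Foxm1 region held a further site at the start of Tulp3, with folds of 11.9 and 15.4.

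FOXP genes, which encode repressors used in neurons and in T cells, each had a site near a start. Foxp4 had the highest folds of the subclass, 14.6 (10.1 to 20.4) and 19.1 (14.5 to 24.6). Foxp1, a regulator of striatal neurons and B cells, held 4 sites, more than any other forkhead gene. It is also the longest forkhead gene, at 597384 bp with 14 starts, so its region gives the most room for sites. Foxp2 (540629 bp) and Foxn3 (373505 bp) held 1 site each. The sites near the starts of Foxp1 had folds of 10.2 (6.53 to 15.2) and 13.1 (9.44 to 17.8) for 1 of them. The other had 9.28 and 6.57, at a start 426516 bp from the 5′ end of the gene. The intronic sites of Foxp1 had 13.3 and 14.8, and 7.51 and 6.57. Foxp2, which is needed for vocal learning and speech, had 6.63 (3.82 to 10.8) and 9.53 (6.44 to 13.6). Foxp3, the factor of regulatory T cells, had 7.51 and 6.57 at a peak that also lies at the start of Ppp1r3f, and these are no measure of Foxp3 alone.

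FOXN genes were uneven, and all 3 FOXJ genes had a site near a start. Foxn2 ranked next to Foxo3 near a start, 16.3 (11.6 to 22.5) and 21 (16.2 to 26.8), with the summits 1171 and 1155 bp inside the gene. Foxn3, a checkpoint suppressor, had 6.19 (3.50 to 10.3) and 9.20 (6.17 to 13.2), just inside the minimum in replicate 1. Foxn1, the thymic epithelium factor, had a single weak peak of fold 3.94 in replicate 2 only, and Foxn4, a factor of retinal and spinal interneurons, had none. Foxj1, the driver of motile cilia, had 9.28 (5.84 to 14.1) and 12.5 (8.89 to 17.1). Foxj2 had 7.51 and 9.53 near its start and a stronger site 8654 bp upstream at chr6:122810152-122812490, with folds of 21.7 and 23.0 and summits 2 bp apart. Foxj3 had 8.39 and 10.8 at a peak within 1 kb of the start of Frg2f1.

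Among the patterning subclasses, Foxd1, a gene of kidney stroma and ventral retina, had folds of 12.4 (8.30 to 17.8) and 13.8 (9.99 to 18.6). Foxc1, a gene of mesenchyme and the eye, had 9.72 (6.18 to 14.6) and 7.56 (4.86 to 11.3). The sites counted for Foxa3, an endoderm gene, and for Foxh1, the SMAD partner in Nodal signalling, lay at other genes. Foxa3 had 9.72 and 9.86 at the start of Irf2bp1 and 6.19 and 6.57 at that of Sympk. Foxh1 had 19.9 and 35.8 at the starts of Cyhr1 and Kifc2 (chr15:76659206-76661287), and 9.28 and 14.1 at that of Cyhr1.

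**Figure D2:**
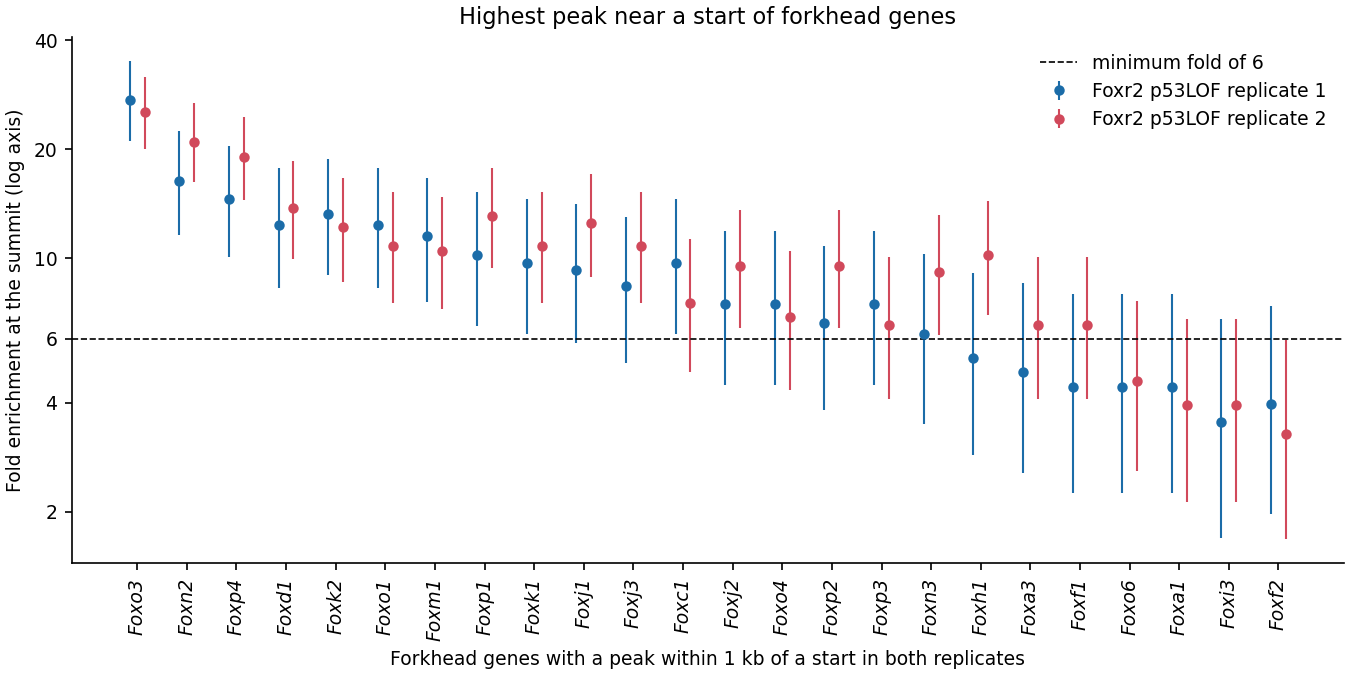
Highest fold enrichment of a peak within 1 kb of a start (log axis) for 24 of the 25 forkhead genes called there in both replicates, with points for the replicates, bars for the 95% Poisson interval (counting error only) and a dashed line at the minimum fold of 6. The intervals of the replicates overlapped for all 24 genes shown, and Foxo3 stood highest at 27.4 and 25.3.

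Peaks were called in both replicates near the starts of 8 forkhead genes without a site there, all of them below the minimum in replicate 1 and some above it in replicate 2, with folds from 3.53 to 5.30 in replicate 1 and from 3.29 to 10.2 in replicate 2. They rested on 7 to 11 fragments in replicate 1 and 9 to 30 in replicate 2. Those described here are 7 of the 8. Foxf1 and Foxf2, genes of lung and gut mesenchyme, had 4.42 and 6.57, and 3.98 (1.97 to 7.41) and 3.29 (1.68 to 5.94). The Foxf2 peaks of the replicates did not overlap each other. Foxa1 had 4.42 and 3.94, and Foxi3, a gene of the placodes, had 3.53 and 3.94. The others described are Foxo6, Foxh1 at 5.30 and 10.2, and Foxa3 at 4.86 and 6.57, the last 2 also at the start of another gene. Of the 17 genes with a site near a start, 9 had intervals wholly above 6 in both replicates, and the other 8 did not.

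Foxc2, Foxl1 and Foxl2 were called in the region of the gene but not near a start in both replicates. The higher peak of Foxc2, a lymphatic and mesenchymal gene, lay at the start of Mthfsd with folds of 6.63 and 5.91, just outside the minimum in replicate 2. Foxc2 and its neighbour Foxl1 also shared a peak of 3.53 in replicate 1 and another of 4.27 in replicate 2. Foxl2, an ovarian gene, had a peak of 3.98 near its start in replicate 1 and one of 3.61 elsewhere in replicate 2. Where the peaks of the replicates had to overlap, Foxl1 and Foxl2 dropped out and 27 regions were called, beside 62.5% of all genes, and near a start Foxf2 dropped out and 24 genes were called, beside 51.1%. No peak was called in either list in the region of 14 genes, which were Foxa2, Foxb1, Foxb2, Foxd2, Foxd3, Foxd4, Foxe1, Foxe3, Foxi1, Foxi2, Foxn4, Foxq1, Foxr1 and Foxs1. The share of all genes with no peak in either list was not counted. Regions called in both lists made up 65.9% of forkhead genes and 63.7% of all genes, so many other genes lack such a call too. They include genes of the floor plate (Foxa2), neural crest (Foxd3), thyroid (Foxe1) and lens (Foxe3). A list gives no level where no peak was called, so these genes were not detectable at this depth and are not shown to be free of Foxr2.

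The forkhead regions held 28 reproducible sites, 18 near a start of the gene itself and 10 elsewhere. Of the 10 elsewhere, 5 lay at the start of another gene and 4 in an intron, and the last was the upstream site of Foxj2. The 18 start sites had median folds of 9.72 and 10.8, beside 10.2 and 11.8 for all 7807 sites within 1 kb of a start. The replicate 1 summit lay within 500 bp of a start at 13 of the 18. The summits of the replicates were within 200 bp of each other at 12 of the 18, beside 5033 of 7807. The fold was higher in replicate 2 at 10 of the 18, beside 5814 of 7807.

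**Figure D3:**
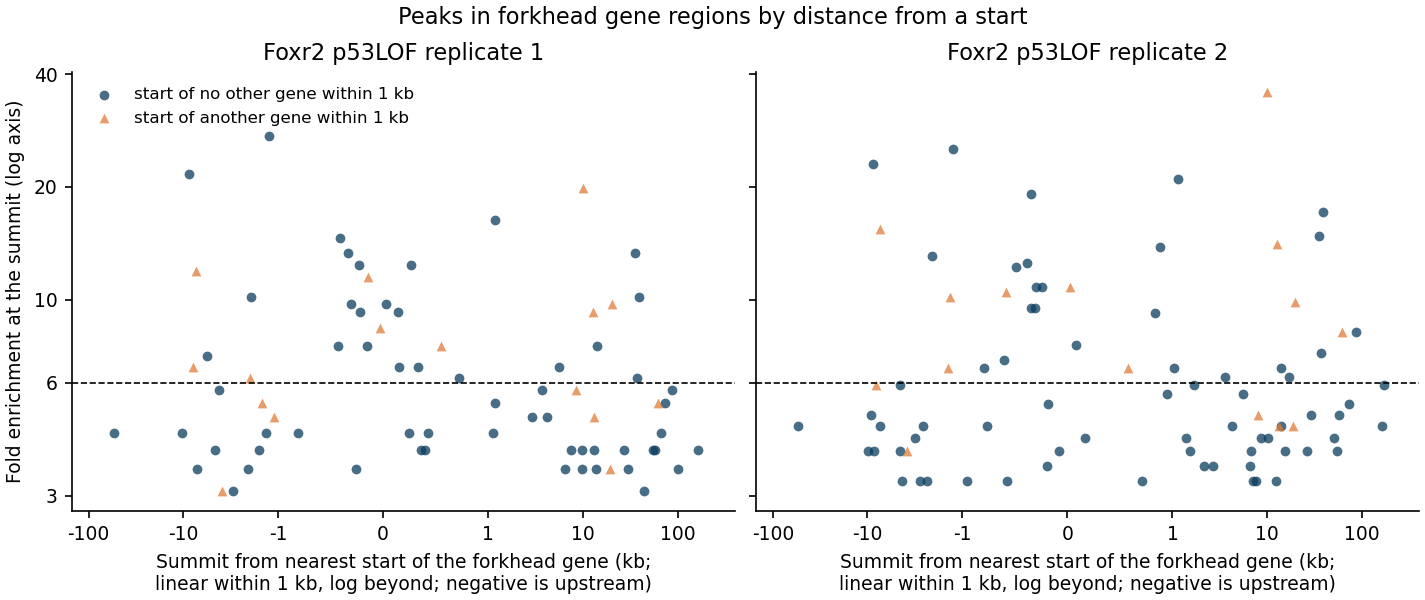
Fold enrichment at the summit (log axis) against the signed distance of the summit from the nearest start of the forkhead gene (kb, linear within 1 kb and log beyond) for 75 of the 76 peaks of replicate 1 (left) and 84 of the 86 of replicate 2 (right), with a dashed line at 6. Triangles are peaks within 1 kb of the start of another gene, and they include the highest point on the right, the Foxh1 region peak of fold 35.8.

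Base composition moved with these classes. Within 500 bp of the 5′ end of the gene, the median GC content was 65.5% for the 17 forkhead genes with a start site, 62.9% for the 8 called there without a site and 58.7% for the other 19. Over all genes it was 59.4% with a start site and 48.6% with none called. In both classes forkhead starts were richer in GC than those of all genes. Among genes with a GC content of 65% or more, 10 of 17 forkhead genes and 66.7% of all genes had a site near a start. From 55% to 65% these were 6 of 20 and 56.5%, from 45% to 55% they were 0 of 5 and 28.4%, and below 45% they were 1 of 2 and 6.00%. In every range but the lowest, the forkhead share was below that of all genes, and this was not tested. Foxf1, Foxf2, Foxd2 and Foxo6 had a GC content among the highest and no site. The part of GC content in the peak calls was not tested. For Foxj3, Foxn3 and Foxp1 the 5′ end of the gene is not the start, or not the only start, with a site (2775, 170510 and 426516 bp away).

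**Figure D4:**
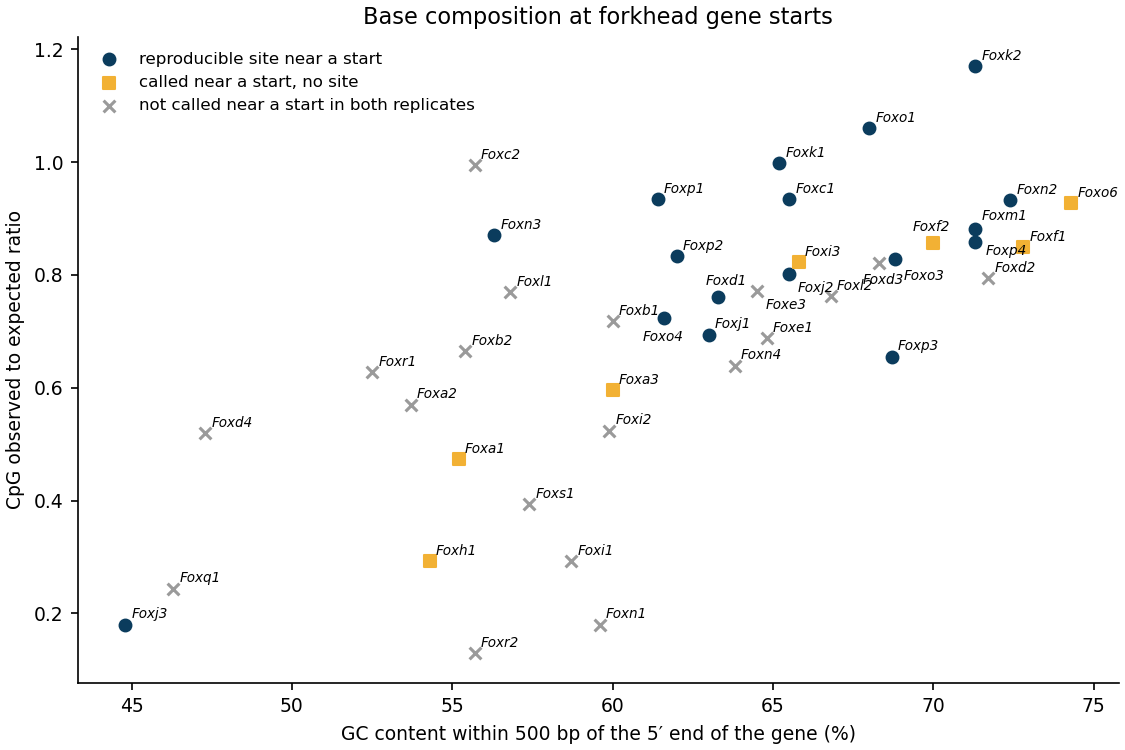
CpG observed to expected ratio against GC content (%) within 500 bp of the 5′ end of 43 of the 44 forkhead genes, with circles for genes with a reproducible site near a start, squares for genes called there without a site and crosses for the rest. Circles gather at high GC, with a median of 65.5% against 58.7% for the crosses, and Foxj3 is the circle at low GC.

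Forkhead cores were looked for in the 200 bases around the replicate 1 summit of each site, on both strands, in 3 spellings. The first spelling, GTAAACA, was in 3 of the 18 forkhead start sites (1 at Foxo1 and 2 at Foxp1), beside 1.60% of the 7807 start sites of all genes. The second, ATAAACA, was in 1 (Foxo3), beside 1.47%, and the third, GTCAACA, in 0, beside 0.909%. The windows with GTAAACA are shown on the strand of the gene, at chr3:52268005-52268204 for Foxo1 (plus), chr6:99522977-99523176 for the first Foxp1 site (minus) and chr6:99095963-99096143 for the second (minus), which was shortened by its untranslated bases. Capitals mark the core, which reads TGTTTAC at Foxp1, and in the first Foxp1 window also the CRE site TGACGTCA, the sequence bound by CREB and its relatives.
Foxo1: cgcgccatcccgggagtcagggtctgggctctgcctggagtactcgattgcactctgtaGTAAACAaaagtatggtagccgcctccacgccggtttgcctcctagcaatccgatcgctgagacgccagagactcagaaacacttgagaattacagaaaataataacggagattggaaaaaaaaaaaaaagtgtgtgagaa
Foxp1, first: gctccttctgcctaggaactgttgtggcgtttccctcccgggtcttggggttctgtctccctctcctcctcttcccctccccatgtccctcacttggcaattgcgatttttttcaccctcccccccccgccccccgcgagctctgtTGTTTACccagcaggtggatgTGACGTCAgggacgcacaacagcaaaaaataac
Foxp1, second: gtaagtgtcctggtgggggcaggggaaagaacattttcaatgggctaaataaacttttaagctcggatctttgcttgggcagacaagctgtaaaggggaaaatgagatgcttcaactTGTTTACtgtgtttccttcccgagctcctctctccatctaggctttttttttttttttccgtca
These windows lie at the folds of 12.4 and 10.8 (Foxo1), 10.2 and 13.1 (Foxp1, first) and 9.28 and 6.57 (Foxp1, second) given above. The other sequences searched were the ETS core CCGGAAG, in 0 of 18 beside 5.24%, the E-box CACGTG, in 1 of 18 (Foxk1) beside 5.06%, and TGACGTCA, in 1 of 18 beside 0.320%. None of the 6 sequences was in the windows of the 10 sites away from forkhead starts. RefSeq promoter windows of 300 bases were found for 28 of the 44 genes, 33 windows in all. Of these 33, GTAAACA was in 1 (Foxa1), beside 3.65% of 32851 windows, ATAAACA in 3 (Foxp1 and Foxp3), beside 4.60%, and CCGGAAG in 0, beside 8.86%. A match is a description of the letters in a window and not of a bound site.

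Genes that work with forkhead factors were read in the same way, as lists with no test. In a FOXO pathway list of 28 genes (AKT and insulin signalling, the 14-3-3 proteins that hold FOXO in the cytoplasm, and known targets), all 28 were called near a start, beside 51.5% of all genes, and 26 had a site there, beside 39.3%. The 2 without, named after their values were seen, were Pdpk1, a kinase upstream of AKT, with folds of 4.42 and 7.23, and Cdkn1b, a cell cycle inhibitor, with 13.3 and 29.6. At Cdkn1b the replicate 2 peak was 15212 bp long and over the length limit. In a list of 17 genes of FOXM1 and the MuvB complex, 17 were called and 14 had a site (again beside 51.5% and 39.3%), all but Mybl2, Ccnb2 and Aurkb. Aurkb had folds of 7.95 and 15.1, and its replicate 2 peak of 11671 bp was over the length limit too. In a list of 16 partners of FOXK and FOXP factors, 16 were called and 12 had a site, beside the same shares of all genes, all but Sin3b, Mta1, Hdac1 and Nfat5. The median of the highest fold near a start was 12.6 and 13.2 over the FOXO pathway list, 8.39 and 15.1 over the FOXM1 and MuvB list and 11.7 and 14.8 over the partner list. For the forkhead genes with a peak near a start in that list it was 7.51 (26 genes) and 9.53 (25 genes). The median GC content at the 5′ end was 59.6%, 58.0% and 66.2% in the 3 lists, beside 62.5% for the forkhead genes and 54.8% for all genes. Its part in these counts was not tested.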

How the data were processed

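Peak lists of 4 CUT&RUN libraries were analysed, 2 of a Foxr2 p53LOF line and 2 of a V5 control, grouped by the labels. The authors trimmed reads with Trimmomatic 0.39, aligned them to mm10 with BWA 0.7.17, removed duplicates with Picard 2.26.6 and called peaks library by library with MACS2 2.2.7.1. The deposited fold enrichment is a ratio of summit fragments to background, made by the authors. MACS2 also gave the authors the −log10 p-values, the −log10 q-values and the score, and the last column deposited by the authors gives the summit position.

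The background of each library was recovered as the value from 0.3 to 4, in steps of 0.0005, at which folds up to 30 give whole fragments (within 0.02) and reproduce each deposited p within 0.02 by a Poisson model. The values found were 1.264 and 2.044 (Foxr2 p53LOF) and 1.694 and 0.6425 (V5 control). Read totals are not in these lists, so precision was taken from summit fragments. Overlaps need 1 bp. Sites take the highest fold of each replicate. Both steps were tested on simulated data, with errors of up to 0.0109% in the background (libraries of 2000 peaks) and 100% of 2000 planted sites recovered. Genes came from GENCODE release M21, sequences from GRCm38.p6, and scripts ran in Python 3.11.15 with numpy 2.4.6, scipy 1.17.1 and matplotlib 3.10.9.

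The members and lists were chosen with earlier results of these data known. Values are given for members with a site or a peak near a start (1 member counted in the totals is not reported on its own here). Some genes outside the family are named because their start lies within 1 kb of a counted peak, and not every such gene is named. Others come from the 3 lists or are named as background. Counts were set beside all protein-coding genes as a description, without a test. Tagged and control libraries were not tested against each other either, since 2 against 2 allow no two-sided permutation p below 0.333. Alternatives covered the minimum fold and q, the control overlap, the length limit, the windows, the overlap counted as shared, peaks at other genes, and leaving out each replicate. Leaving out 3 chromosomes was added after the data were seen. RNA-seq and single-cell data were not used here.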

Additional observations from a re-analysis of the deposited data

How the results depend on the processing

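Of 61 alternative values for the counts of forkhead genes, 57 stayed within 1.5 times the reported count. The other 4 came from a minimum fold of 10, which took the genes above the minimum in the region from 19 to 11 and those near a start from 17 to 8, beside 28.4% and 20.2% of all genes. The genes with a reproducible site changed alike, to 11 in the region and 8 near a start, since by construction fewer peaks pass. Leaving out a Foxr2 p53LOF replicate gave 17 to 20 genes with a site near a start, where a site is then a filtered peak of the remaining replicate, and leaving out a control replicate left 17. Without peaks at the start of another gene, 14 genes (31.8%) had a start site, beside 29.4% of all genes. No paired analysis was possible because the counts come from no test that could hold a replicate block. Peaks of few fragments limit what can be said near the minimum fold, and genes without a called peak have no level.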
